A study of Homo sapiens with 2 samples.

Results

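Cytosolic ribosomal proteins are the protein part of the ribosome that translates nuclear mRNAs, and their mRNAs were followed here in L-428 cells, a cell line from Hodgkin's lymphoma (HL), after knock-down of DUSP5. They were chosen by name: a probe set was taken if the platform annotation gave it 1 gene symbol, either RPL or RPS with a number and an optional final A, L or X, or 1 of RPLP0, RPLP1, RPLP2 and RPSA. The genes of RPS6 kinases and Y-linked genes were left out. This rule found 55 of 11963 genes, 21 of the small and 34 of the large subunit, with 93 probe sets. A gene was represented by its brightest probe set. Probe sets that carry a second symbol, mostly of a small nucleolar RNA encoded in an intron of the gene, fall outside the rule, so 16 further ribosomal protein genes that are found only there are not named with values.

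RNA was analysed on 2 Affymetrix DNA microarrays. The first came from L-428 cells transfected with the vector pcDNA6.2-GW/EmGFP-miR-DUSP5, which expresses an artificial microRNA against DUSP5. The control array came from L-428 cells transfected with pcDNA6.2-GW/EmGFP-miR-neg, called empty in the study and named as a negative-control microRNA vector in the sample label. All cells are 1 established line, and the labels give neither a time after transfection nor a share of transfected cells. With 1 array per condition no difference has a replicate check, no p-value was computed, and an effect of the knock-down and a difference between the 2 cultures cannot be told apart.

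The signal intensity of DUSP5, a nuclear phosphatase that inactivates ERK, was 368 in knock-down cells and 628 in control cells, which is 58.6% of control. Both arrays had 22283 probe sets, and the median signal was 164 on the knock-down array and 161 on the control array. The HL markers TNFRSF8, the receptor CD30 (3618 in knock-down cells and 1724 in control cells), and CCL17, a chemokine of HL cells (6019 in knock-down cells and 3022 in control cells), were detected with high signals, as were TRAF1 and IRF4. FUT4, which makes the CD15 antigen, had 317 in knock-down cells and 756 in control cells, but its second probe set gave 284 in knock-down cells and 223 in control cells. Of 5 B cell markers only PAX5 was measured (211 in knock-down cells and 268 in control cells). None of 3 T cell and 3 monocyte markers reached a mean signal of 200, the level from which a gene was called measured.

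The small subunit of the ribosome reads the codons of the mRNA, and the large subunit forms the peptide bonds. Both subunits need their proteins in equal numbers, and surplus ribosomal proteins are degraded. The mRNAs share a start: most begin with a C followed by an uninterrupted run of pyrimidines, the 5′ terminal oligopyrimidine (TOP) sequence, through which the kinase mTORC1 and the RNA-binding protein LARP1 control their translation and stability. Growing tumor cells contain these mRNAs in very large amounts.

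The start sites of members at both ends of the range of ratios are shown to make this shared feature visible. In the RefSeq table of promoters (GRCh38.p14), 47 of the 55 genes were found. RPL23A, RPL30, RPL37, RPL39L, RPL3L, RPL7, RPL8 and RPS15A were not matched. A window began with TOP if the annotated first base was a C with at least 4 pyrimidines after it. Where a gene had several annotated starts, the one with the longest run was used. The windows below hold 10 bases before the start and 20 bases from it on, 5′ to 3′, with the pyrimidine run in capitals. Members with high ratios, among measured genes with a window, are followed by those with low ratios and by RPS27, whose paralogue RPS27L is among the low ones.
RPL14 (chr3:40457329-40457358, plus strand): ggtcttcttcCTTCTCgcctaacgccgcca
RPL29 (chr3:51995876-51995905, minus strand): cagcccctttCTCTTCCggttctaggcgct
RPL3 (chr22:39319604-39319633, minus strand): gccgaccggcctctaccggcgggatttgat
RPL12 (chr9:127451387-127451416, minus strand): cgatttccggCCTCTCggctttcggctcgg
RPL18 (chr19:48619159-48619188, minus strand): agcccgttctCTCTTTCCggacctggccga
RPL38 (chr17:74203668-74203697, plus strand): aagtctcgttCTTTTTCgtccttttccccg
RPS25 (chr11:119018324-119018353, minus strand): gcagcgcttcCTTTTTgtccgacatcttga
RPS27L (chr15:63157458-63157487, minus strand): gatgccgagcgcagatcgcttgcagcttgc
RPS27 (chr1:153990752-153990781, plus strand): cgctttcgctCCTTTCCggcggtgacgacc
RPL10L (chr14:46651762-46651791, minus strand): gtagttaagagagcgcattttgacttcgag
A TOP start by this definition was found in 33 of 47 members (70.2%), against 5.14% of 27305 genes with a window in the table. Its run was 5 to 19 bases long, with a median of 8. RPS27 has such a start, whereas its paralogue RPS27L and the testis-specific RPL10L, a copy of RPL10, do not. RPL3, at the high end of the ratios, has a run of only 4 pyrimidines at its annotated start.

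Nearly all ribosomal protein genes had a higher signal in knock-down cells, by a similar and moderate amount. Of the 55 genes 52 were measured. Their median log2 ratio of knock-down over control was 0.47, which is 1.38-fold, and the middle 50% of the genes lay between 0.34 and 0.61. The signals of the measured genes were 384.5 to 38767 in knock-down cells (median 20391.7) and 486 to 25338 in control cells (median 15055). A ratio above 0 was found for 48 of 52 genes, against 50.4% of all 6301 measured genes. At least 1.5-fold higher were 14 of 52, against 15.6% of all measured genes, and at least 1.5-fold lower was 1 of 52, against 19.0%. Against all measured genes, the share past the limit was thus larger on the higher side and smaller on the lower side. Most members were brighter than most measured genes, however. Of the 107 genes with signals averaging 10000 or more, 38.3% were at least 1.5-fold higher and 0.935% lower. Of the 44 members this bright, 29.5% were higher and none lower. A ratio above 0 was found for 43 of these 44 members and for 55 of the 63 other genes this bright (87.3%).

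**Figure D1:**
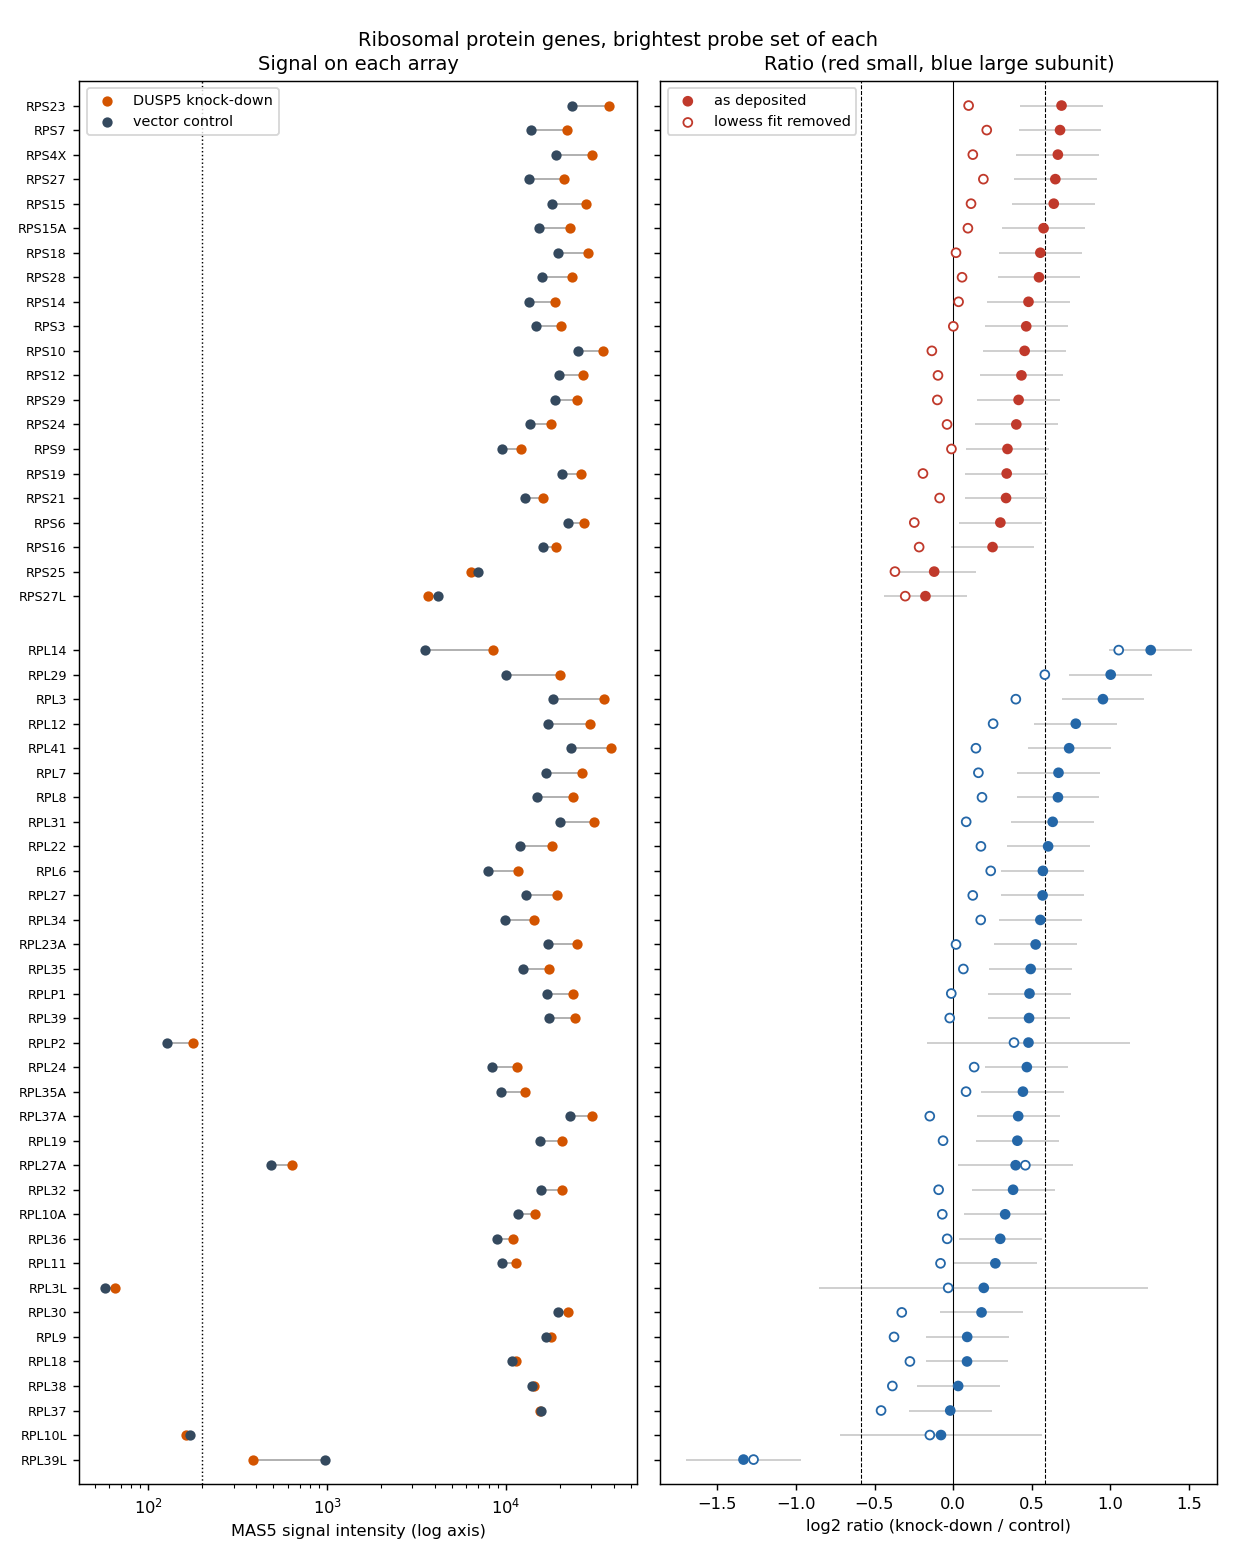
Left, MAS5 signal intensity (log axis) of the 55 ribosomal protein genes on the knock-down array (orange) and the control array (dark), each at its brightest probe set, with the dotted line at a signal of 200. Right, log2 ratio of knock-down over control as deposited (filled, bars: SD between probe sets of a gene at this signal) and with the lowess fit removed (open), small subunit in red and large subunit in blue, dashed lines at 1.5-fold. Filled points lie to the right of 0 for nearly all genes, whereas open points scatter around 0, with RPL14 (1.05) and RPL39L (-1.27) outside the dashed lines.

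Genes with more than 1 probe set gave an estimate of the error of a ratio. Between probe sets of the same gene, both with a mean signal of at least 3000, the standard deviation (SD) of the log2 ratio was 0.26 over 272 pairs of all genes, and 0.25 over 22 pairs from 13 of the ribosomal protein genes. It was 0.37 for pairs whose dimmer probe set had a signal of 500 to 1000. This SD covers error within the arrays and not the spread between cultures. A single bright gene at the common ratio of 0.47 thus differed from 0 by more than this SD.

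Both subunits had similar medians, and their difference has no test with 1 array per condition. In the small subunit all 21 genes were measured, with a median of 0.45 and a range of -0.18 to 0.69. In the large subunit 31 of 34 were measured, with a median of 0.48 and a range of -1.33 to 1.26. The difference of the medians, small minus large, was -0.028. At least 1.5-fold higher were 5 of 21 genes of the small subunit (23.8%) and 9 of 31 of the large subunit (29.0%), against 15.6% of all measured genes and 38.3% of those with a mean signal of at least 10000. The large subunit was more spread out, with an SD over genes of 0.43 (0.29 without paralogues), against 0.23 (0.19 without paralogues) for the small subunit.

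In the small subunit the 4 highest ratios belonged to RPS23, RPS7, RPS4X and RPS27. RPS23, a protein of the decoding center, had a signal of 37819.6 in knock-down cells and 23449.5 in control cells, a log2 ratio of 0.69. RPS7, whose mutations can cause Diamond-Blackfan anemia, had 22052 in knock-down cells and 13763 in control cells (0.68), but its second probe set gave only 0.16. RPS4X, encoded on the X chromosome, had 30304 in knock-down cells and 19095 in control cells (0.67), with 0.58 at its other probe set. For RPS27 the signals were 21039 in knock-down cells and 13406 in control cells (0.65). The next gene, RPS15, was at 0.64, and no gap separated these genes from the rest.

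At the low end of the small subunit were RPS27L, RPS25, RPS16 and RPS6. RPS27L, a paralogue of RPS27 that is induced by p53, had 3685 in knock-down cells and 4164 in control cells, a log2 ratio of -0.18. RPS25, which many viral internal ribosome entry sites require, had 6406 in knock-down cells and 6964 in control cells (-0.12). These were the only genes of this subunit with a lower signal in knock-down cells, and both ratios were within 1 SD between probe sets of 0. RPS16 had 19069 in knock-down cells and 16027 in control cells (0.25, and 0.12 at its other probe set). RPS6, the substrate of the S6 kinases and also of the ERK-activated kinases of the RSK family, had 27451 in knock-down cells and 22289.6 in control cells (0.30). Its 3 bright probe sets gave 0.27, 0.27 and 0.30, the closest agreement among genes with 3 or more measured probe sets. RPS10, a Diamond-Blackfan anemia gene, had 34729.6 in knock-down cells and 25338 in control cells (0.45), the median ratio of the subunit. Signals of different genes are not compared as levels, because they also depend on the probes.

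In the large subunit RPL14 stood apart from all other members at the high end. This protein of the outer surface of the subunit gave 8418 in knock-down cells and 3523 in control cells at its brightest probe set, which is 2.39-fold (log2 ratio 1.26). Its other bright probe set gave 7633 in knock-down cells and 2496 in control cells (1.61), and its remaining one, too dim to be called measured, 98.1 in knock-down cells and 29.3 in control cells (1.74). All 3 probe sets were thus at least 2.39-fold higher in knock-down cells, and the lowest of the 3 ratios exceeded the median of the members, 0.47, by more than the SD between probe sets (0.26). RPL29, a small protein rich in basic residues, followed with 20051 in knock-down cells and 10010 in control cells (1.002), and 0.87 at its other probe set. RPL3, which reaches toward the peptidyl transferase center, had 35394 in knock-down cells and 18284 in control cells (0.95). RPL12, part of the base of the stalk, had 29535 in knock-down cells and 17197 in control cells (0.78), with 0.66 at its other probe set. RPL41, the shortest ribosomal protein, had 38767 in knock-down cells and 23244 in control cells (0.74). RPL7 (26508 in knock-down cells and 16658 in control cells, 0.67) and RPL8 (23608 in knock-down cells and 14871 in control cells, 0.67) were also past the 1.5-fold limit, and the second probe set of RPL7 gave -0.14.

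The low end of the large subunit was formed by RPL39L, RPL37, RPL38 and RPL18. RPL39L, a paralogue of the exit tunnel protein RPL39 that is made in male germ cells and in some tumors, was the only member at least 1.5-fold lower. Its only probe set gave 384.5 in knock-down cells and 969 in control cells, which is 39.7% of control (log2 ratio -1.33, SD between probe sets at this signal 0.37). RPL39 itself had 24336 in knock-down cells and 17411 in control cells (0.48), close to the median of the subunit. The pair therefore went in opposite directions as deposited, with the reservation that the paralogue rests on 1 probe set of moderate signal. After removal of the trend with signal described below, RPL39 was at -0.02 and only RPL39L (-1.27) was far from 0. RPL37 had 15438 in knock-down cells and 15636 in control cells (-0.02). RPL38, needed in mice for translation of certain Hox mRNAs, had 14304 in knock-down cells and 13990 in control cells (0.03). RPL18 had 11428 in knock-down cells and 10749 in control cells (0.09), but 0.93 at a probe set with far lower signals.

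Groups within the ribosome did not stand out. Of the proteins that line the exit tunnel or its rim, 6 of 9 were measured, all with a ratio above 0 and with a narrow range of 0.41 (RPL19) to 0.63 (RPL31). A ratio above 0 was also found for 87.3% of the 63 genes other than members with a mean signal of at least 10000. RPL23A, near the docking site of the signal recognition particle, was at 0.52. At least 1.5-fold higher were 2 of the 6, against 15.6% of all measured genes and 38.3% of those with a mean signal of at least 10000, a level that all 6 reached. Of 18 genes listed for Diamond-Blackfan anemia, an inherited failure of red cell formation, 13 were measured, with a median of 0.45. Of these, RPS7, RPS27 and RPL31 were at least 1.5-fold higher (3 genes, 23.1%, against 15.6% of all measured genes). None was that much lower, against 19.0%, and RPL18 was lowest at 0.09. All 13 had a mean signal of at least 10000, a range in which 38.3% of genes were at least 1.5-fold higher and 0.935% lower. RPS19, the gene most often mutated in this disease, had 26113 in knock-down cells and 20620.0 in control cells (0.34). RPS24 (0.40), RPS29 (0.42), RPL35A (0.44), RPL35 (0.49), RPS28 (0.55) and RPL27 (0.57) lay within 1 SD between probe sets of the median. RPL11, which together with RPL5 and 5S RNA binds MDM2, had 11409.8 in knock-down cells and 9471 in control cells (0.27), and RPL5 was not analysed here. RPLP1, an acidic protein of the stalk that recruits elongation factors, had 23603 in knock-down cells and 16856 in control cells (0.49). Its partner RPLP2 was represented only by dim probe sets, the brighter with 178 in knock-down cells and 128 in control cells (0.48), and another of its probe sets carries a second symbol. The same holds for RPL27A, whose probe set with a single symbol had 639.6 in knock-down cells and 486 in control cells (0.40). Of the proteins at the entry channel for mRNA, values were obtained for RPS3 (20250.5 in knock-down cells and 14671 in control cells, 0.47) and FAU, the fusion gene of RPS30, which the rule on symbols does not cover (10574.7 in knock-down cells and 8504 in control cells, 0.31).

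Of the 4 paralogues among the members, RPL39L (-1.33) and RPS27L (-0.18, within 1 SD between probe sets of 0) had ratios below 0 as deposited, whereas RPL39 (0.48) and RPS27 (0.65) had ratios above 0. RPL26L1, a paralogue of RPL26 that the rule on symbols does not cover, went the other way, with 3361 in knock-down cells and 2135 in control cells (0.65). After removal of the trend with signal described below, RPL39L was at -1.27, RPS27L at -0.30, RPL39 at -0.02, RPS27 at 0.19 and RPL26L1 at 0.60. The remaining 2 paralogues among the members were not measured: RPL10L had 162 in knock-down cells and 171 in control cells, and the muscle gene RPL3L had 65.2 in knock-down cells and 57.0 in control cells.

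Of the members, 19 had several probe sets above the limit for measured signals, and at 14 of these all probe sets had the same sign. For RPL22, the probe sets ranged from -0.43 to 0.60, and for RPL37A from -0.63 to 0.41. In both, the brightest probe set was the high one, which for RPL37A, a zinc finger protein of the large subunit, had 30434 in knock-down cells and 22843 in control cells. RPL22, which also binds the small RNAs of Epstein-Barr virus, had 18128 in knock-down cells and 11925 in control cells at its brightest probe set, and 2354 in knock-down cells and 3171 in control cells at its dimmest. Probe sets of the types _s_at (27 genes) and _x_at (15 genes), which can match several transcripts, represented most of the 52 measured genes, and ribosomal protein genes have many processed pseudogenes.

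**Figure D2:**
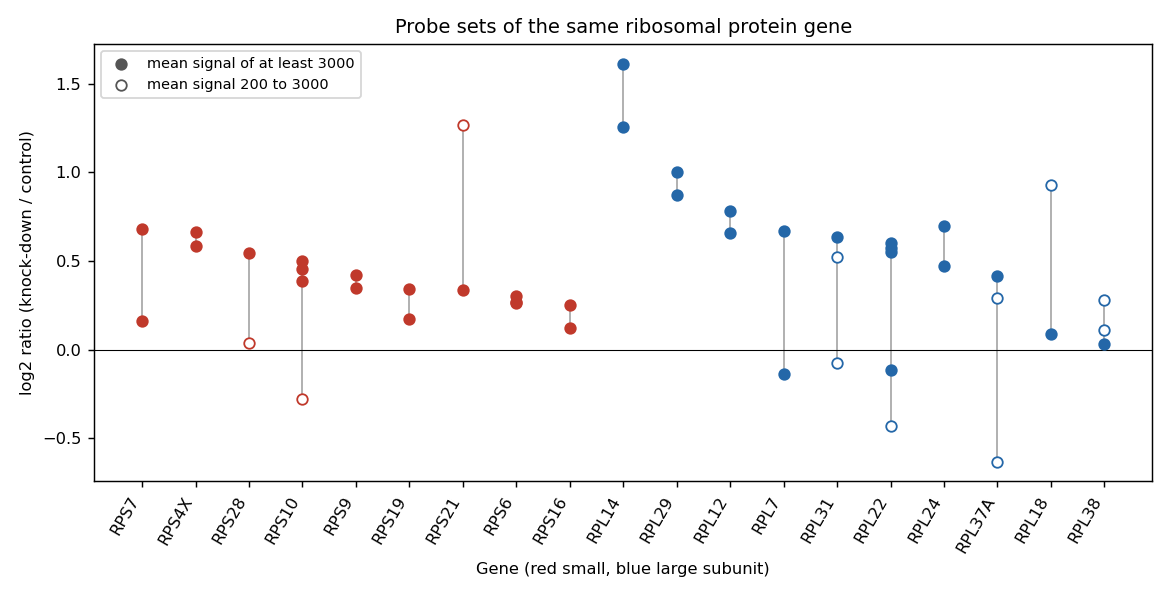
Log2 ratio of knock-down over control (vertical axis) for each probe set whose mean signal reached 200, for the 19 ribosomal protein genes with several such probe sets (horizontal axis). Filled points have a mean signal of at least 3000, open points a lower one, and colors mark the subunit. Both probe sets of RPL14 (1.26 and 1.61) and of RPL29 (0.87 and 1.002) lie above those of most other genes, whereas RPL22 and RPL37A span more than 1 on the log2 scale.

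The shift common to both subunits went along with the brightness of the probe sets. Among measured genes other than the members, the median log2 ratio was 0.0074 at mean signals of 200 to 500, -0.043 at 500 to 1000, -0.035 at 1000 to 3000, 0.14 at 3000 to 10000 and 0.38 at 10000 to 20000. The members had medians of 0.38 (6 genes) at 3000 to 10000 and 0.44 (25 genes) at 10000 to 20000. Above 20000 the median was 0.52 for 19 members and 0.76 for other genes, of which there were only 9. At a mean signal of at least 10000, 13 of 44 members (29.5%) were at least 1.5-fold higher, against 38.3% of all 107 genes in this range, and none was at least 1.5-fold lower, against 0.935%. The medians there were 0.48 for the 44 members and 0.49 for the 63 other genes. Over the 52 measured members, the rank correlation of the log2 ratio with the mean signal was 0.42. Both quantities were computed from the same 2 arrays, and it is given as a description only.

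**Figure D3:**
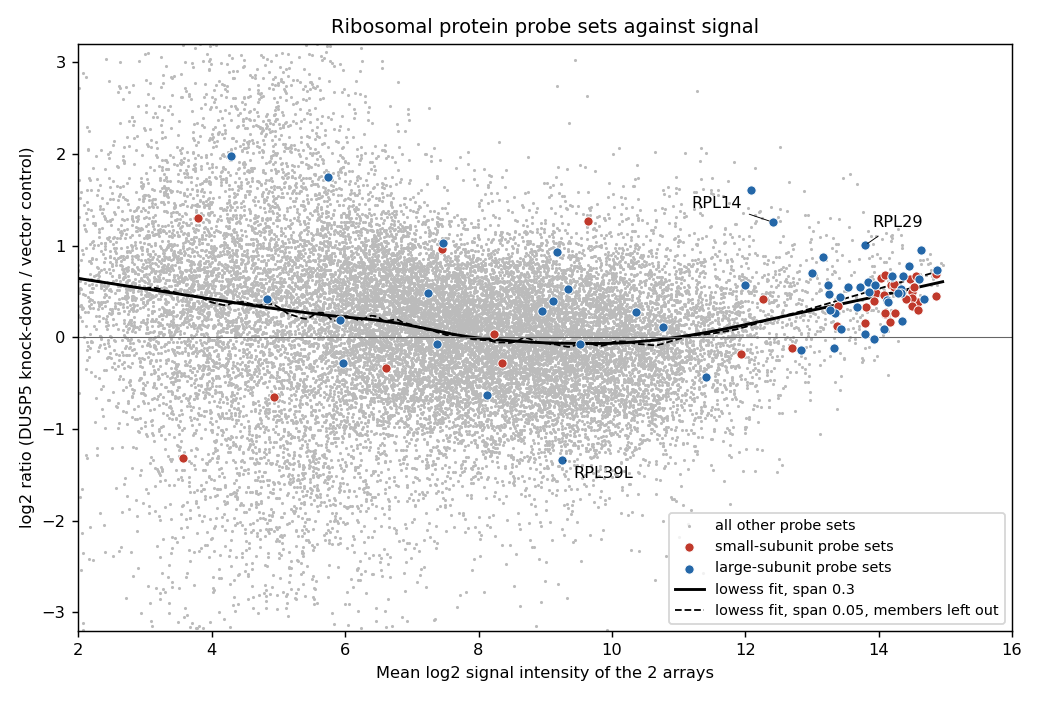
Log2 ratio of knock-down over control (vertical axis) against the mean log2 signal intensity (horizontal axis) of all probe sets (grey) and of the 93 probe sets of ribosomal protein genes (red small, blue large subunit). Probe sets outside the axes are not drawn. The lowess fits (solid: span 0.3, dashed: span 0.05 without the members) turn upward at high signals, and most ribosomal protein probe sets lie along them, with RPL14 and RPL29 above and RPL39L below.

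When the trend was removed, the median of the ribosomal protein genes was close to 0. For this, a lowess curve (span 0.3) was fitted to the ratios of all probe sets along their mean log2 signal and subtracted. The median of the 52 genes was then 0.0098, with 27 genes above 0, against 50.8% of all measured genes, and 25 below 0, and the middle 50% lay between -0.11 and 0.14. Medians were -0.011 for the small and 0.065 for the large subunit, and their difference, small minus large, was -0.076. A fit without the probe sets of the members gave a median of 0.010. A narrower fit (span 0.05, members left out), chosen after the data were seen, gave a median of -0.077, with -0.088 for the small and -0.027 for the large subunit. With this fit 19 genes were above 0, against 51.5% of all measured genes, and 33 below 0. Relative to the 500 probe sets nearest in signal the median was 0.11, with 38 genes above and 14 below 0, for which no share of all measured genes is given. Only probe sets with 1 symbol were left out as members. The 57 probe sets with several symbols that include a ribosomal protein symbol stayed in every fit and could be among the nearest 500. Of these, 49 were measured, with a median log2 ratio of 0.54. The trend was thus not estimated apart from all ribosomal protein mRNAs. The count on either side of 0 thus depended on how the trend was estimated. The rank correlation with the mean signal was 0.05 after removal of the wide fit.

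After removal of the trend RPL14 remained as the only gene at least 1.5-fold higher (log2 ratio 1.05), against 15.5% of all measured genes, and RPL39L as the only one that much lower (-1.27), against 18.1%. At a mean signal of at least 10000, where 7.48% of genes were still at least 1.5-fold higher and 3.74% lower, no member was. RPL29 (0.58) lay just under the limit, and was past it (0.63) relative to the 500 probe sets nearest in signal. The value of RPL14 was 1.05 with the narrow fit and 1.06 relative to the 500 nearest probe sets. That of RPL39L was -1.24 with the narrow fit and -1.26 relative to the nearest probe sets. Farther from the fit than 1 SD between probe sets were 12 of 52 genes, against 54.6% of all measured genes, and 15 with the narrow fit and 20 relative to the nearest probe sets. All measured genes were mostly dimmer, with a median signal of 681 in knock-down cells, against 20391.7 for the members. No such share is given for bright genes alone, for the narrow fit or for the nearest probe sets. Besides RPL14 and RPL29, RPL27A (0.46) and RPL3 (0.40) lay above the wide fit by more than 1 SD. Besides RPL39L, the genes below it were RPL37 (-0.46), RPL38 (-0.39), RPL9 (-0.38), RPS25 (-0.37), RPL30 (-0.33), RPS27L (-0.30) and RPL18 (-0.27). The spread of the members around the fit was small: the middle 50% of the 44 bright members covered 0.22, against 0.49 for the 63 other genes of this brightness.

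The start sequences shown above did not separate genes with high and low ratios. The median log2 ratio was 0.46 for 32 measured genes with a TOP start and 0.55 for 13 without one, and after removal of the trend -0.0047 for genes with and 0.057 for genes without it. The rank correlation of the length of the run with the ratio was -0.10 over 45 genes. The motif CCGGAAG, the core of sites for ETS factors, some of which are ERK substrates, was found on either strand in the 300 bases around the start in 38.3% of 47 members, against 10.7% of all genes in the table. Measured members with it had a median of 0.41 (17 genes), and those without it 0.48 (28 genes). The motif AAGATGGC, a site type of the factor YY1, was found in 4 members (8.51%, against 3.01% of all genes), whose median was 0.47. TATAAA was found in 8.51% of members and 11.98% of all genes, and GGGCGG, the GC box, in 55.3% of members and 44.4% of all genes. A match is a run of letters and not a shown binding site.

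Other genes with TOP mRNAs, which share the control of ribosomal proteins, mostly had ratios above 0 as well (15 of 16 measured, 93.75%). The share above 0 was 50.4% among all measured genes. It was 87.3% among the 63 genes other than members with a mean signal of at least 10000. Of 18 genes listed 16 were measured, with a median log2 ratio of 0.69, and 11 were at least 1.5-fold higher (68.75%, against 15.6% of all measured genes and 38.3% of those with a mean signal of at least 10000) and none lower. EEF1D, a subunit of the elongation factor complex, was highest (5014 in knock-down cells and 2210 in control cells, 1.18), and VIM, an intermediate filament protein, followed (26363 in knock-down cells and 11972 in control cells, 1.14). Taken at their brightest probe sets, BTF3 (-0.02) and NAP1L1 (0.10) were lowest. Other probe sets of BTF3 gave -0.03 and -0.73, the latter past the 1.5-fold limit, and those of NAP1L1 gave -0.10 to 0.75. The median of the 16 genes after removal of the trend was 0.22, with 5 of 16 at least 1.5-fold higher (31.25%, against 15.5% of all measured genes and 7.48% of the bright ones). No test of the difference between this list and the ribosomal proteins can be made with 1 array per condition.

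**Figure D4:**
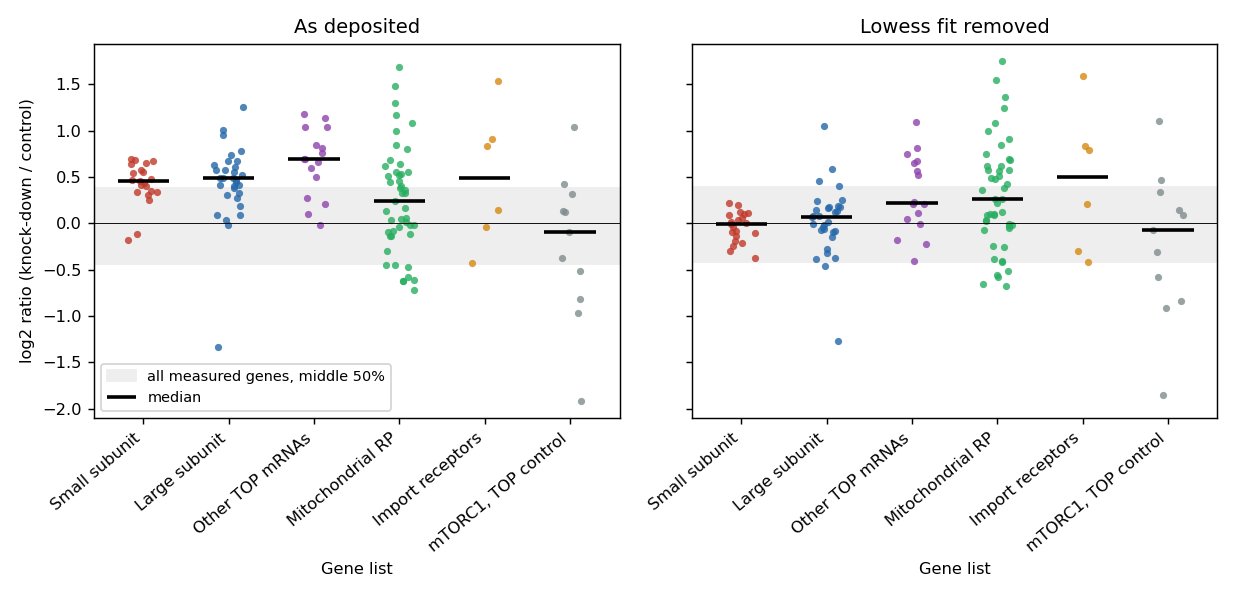
Log2 ratio of knock-down over control (vertical axis) of measured genes as deposited (left) and with the lowess fit removed (right), for the 2 subunits and 4 related gene lists (horizontal axis). Each point is a gene, black bars are medians, the grey band holds the middle 50% of all measured genes, and the horizontal offset of points within a list has no meaning. The medians of both subunits lie at 0.45 and 0.48 on the left and near 0 on the right. Mitochondrial ribosomal proteins and regulators of mTORC1 are more scattered than the cytosolic ribosomal proteins, whose median signal is higher.

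The ribosomal proteins of mitochondria, which are encoded in the nucleus, had a median of 0.24 over 47 measured genes of 51. Of these, 11 were at least 1.5-fold higher, such as MRPL23 (1.69) and MRPL17 (1.48), and 4 were that much lower, such as MRPS30 (-0.72) and MRPL33 (-0.62). These are 23.4% and 8.51% of the list, against 15.6% of all measured genes higher and 19.0% lower. Removal of the trend left their median at 0.26, and it was 0.29 after quantile normalization. It was 0.12 after centring on the median of all probe sets. Without _s_at and _x_at probe sets it was -0.021, over 21 genes. The middle 50% covered 0.65 for these genes, against 0.28 for the cytosolic ribosomal proteins and 0.83 for all measured genes. The 2 lists differ in brightness, with median signals in knock-down cells of 1179 for the mitochondrial and 20391.7 for the cytosolic ribosomal proteins. The SD between probe sets is larger at lower signals.

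Among regulators of TOP mRNAs the ratios went both ways. Of 12 listed genes 11 were measured, with a median of -0.10, and 1 was at least 1.5-fold higher (9.09%, against 15.6% of all measured genes) and 3 were lower (27.3%, against 19.0%). DDIT4, a stress-induced inhibitor of mTORC1, was lowest (579 in knock-down cells and 2187 in control cells, -1.92), and EIF4EBP2, a repressor of cap-dependent initiation, was at -0.97. AKT1, an activating kinase of the pathway, was highest (850.3 in knock-down cells and 413 in control cells, 1.04), and TSC1 was at 0.43. LARP1, which binds TOP sequences, had 2675 in knock-down cells and 2449 in control cells (0.13), and MTOR had 308 in knock-down cells and 246 in control cells (0.32).

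Proteins that carry ribosomal proteins to their place of assembly were measured in part. Of 6 import receptors, taken at their brightest probe sets, 3 were at least 1.5-fold higher, against 15.6% of all measured genes, and none that much lower, against 19.0%, with IPO5 (1914 in knock-down cells and 662 in control cells, 1.53) and IPO7 (0.91) highest and TNPO1 (-0.43) and KPNB1 (-0.04) lowest. The count of lower receptors depended on the probe set, since the other 4 probe sets of TNPO1 gave -1.07, -0.78, -0.76 and -1.44, all past the 1.5-fold limit. For KPNB1 the other 5 probe sets gave 0.31 to 1.14. These receptors carry new ribosomal proteins into the nucleus. Of 8 chaperones dedicated to single ribosomal proteins, 4 were measured. GRWD1, the chaperone of RPL3, had 336 in knock-down cells and 148 in control cells (1.18), and TSR2, the chaperone of RPS26, had 452 in knock-down cells and 709 in control cells (-0.65). BCCIP was at 0.32 and PDCD2 at -0.10. Of the ribosomal stress checkpoint none of 4 genes was measured: MDM2 had 195 in knock-down cells and 160.5 in control cells, and CDKN1A 52.6 in knock-down cells and 88.0 in control cells.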

How the data were processed

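Total RNA from 2 cultures of L-428 cells was hybridised to Affymetrix expression arrays. The deposited values are signal intensities that the authors computed with MAS5 and scaled to a target of 500 per array. They are on a linear scale and were used without further normalization. Probe sets were named from the platform annotation: 19065 of 22215 had 1 symbol, 1043 several and 2107 none. The log2 ratio of knock-down over control was computed for each gene at its brightest probe set, with a minimum mean signal of 200. With 1 array per condition no test was run. A difference is given beside the SD between probe sets of a gene at the same signal. The number of arrays limits the precision. Lowess fits used statsmodels 0.14.6 under Python 3.11.15, with numpy 2.4.6 and pandas 2.3.3, and were tested on simulated data. Alternatives were quantile normalization, centring, other trend fits, folds, signal minimums and probe set choices. Named genes were, per subunit, the 4 highest, the 4 lowest and the 3 brightest measured members, members past 1.5-fold, with discordant probe sets or not measured, paralogues and members of groups, and up to 2 highest and 2 lowest genes of each related list. Members and lists were chosen with earlier results of these data known. Protein sequences were not analysed here.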

Additional observations from a re-analysis of the deposited data

How the results depend on the processing

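No paired analysis was possible because there is only 1 array in either group. The median log2 ratio of the ribosomal protein genes, 0.47 as deposited, depended on how the arrays were scaled. It was 0.34 after centring on the median of all probe sets, -0.037 after quantile normalization, 0.0098 after subtraction of the lowess fit, 0.010 with a fit made without the members, -0.077 with the fit of span 0.05, which was chosen after seeing the data, and 0.11 relative to the 500 nearest probe sets. In the same order of settings, the small subunit had 0.33, -0.061, -0.011, -0.0085, -0.088 and 0.082, and the large subunit 0.36, 0.025, 0.065, 0.066, -0.027 and 0.12. The number of members at least 1.5-fold higher, 14 as deposited, was 5, 1, 1, 1, 1 and 2 in that order. At a lower limit of 0.32 on the log2 scale it was 40, and at 2-fold it was 2. The background at 1.5-fold was 15.6% higher and 19.0% lower as deposited. It was 15.5% and 18.1% after subtraction of the lowess fit, and 15.9% and 17.6% with the fit of span 0.05. For the other limits and settings no background share is given, so the counts there cannot be weighed against one. When the probe sets of a gene were averaged, the median was 0.41 for all members and 0.41 for the large subunit. When _s_at and _x_at probe sets were left out, the median was 0.41 for all members and 0.27 for the large subunit, the difference of the subunits (small minus large) was 0.17, and 4 members were at least 1.5-fold higher and 2 lower. At a minimum signal of 3000 none was lower (0), because RPL39L was left out by that minimum. Among members at least 1.5-fold higher or lower as deposited, the sign turned for RPL22 (-0.43) and RPL31 (-0.075) without these probe set types, for RPL31 (-0.027) and RPS23 (-0.025) with the fit of span 0.05, and for RPS23 (-0.011) after quantile normalization. Counting all 52 measured members, the sign turned for 3 after centring, 27 after quantile normalization, 21 with the lowess fit made with or without the members, 29 with the fit of span 0.05 and 10 relative to the nearest probe sets. It also turned for 1 when probe sets were averaged (RPS12, -0.11) and for 3 of 17 without the _s_at and _x_at types, the other being RPL37A (-0.63). The causes were not tested. Among the values of single genes and lists, 308 moved by less than a tolerance, 299 by more, and 5 were classed separately as reversed. The tolerance was the SD between probe sets for a single gene. For the median of a list it also depended on the number of genes, such as 0.083 for the 16 other TOP genes and 0.048 for the 47 mitochondrial ones. Signals under 200 were too imprecise to be used, with an SD between probe sets of 0.64 at 100 to 200.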

Other observations

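The probe sets with several symbols that include a ribosomal protein symbol were left out of the report by the rule on symbols. Of 57 such probe sets 49 were measured, with a median log2 ratio of 0.54, a range of -0.25 to 1.59, and 21 at least 1.5-fold higher (42.9%, against 15.6% of all measured genes) and none lower (against 19.0%) in knock-down cells. These probe sets were bright, with a median signal of 19916.7 in knock-down cells. In the signal range from 10000 upward, the shares of genes past this limit were 38.3% (higher) and 0.935% (lower). After subtraction of the lowess fit the median of these probe sets was 0.092, with 6.12% past the limit on the higher side and 4.08% on the lower side. The shares of bright genes were then 7.48% and 3.74%. The members ranged from -1.33 to 1.26. The probe sets with several symbols include probe sets of 16 ribosomal protein genes that have no probe set with a single symbol.

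RPL14, RPL29 and RPL39L, the members farthest from the fit at either end, all lie on chromosome 3, and the values of their neighbours were looked up after this was seen. RPL24 (0.13 with the trend removed), RPL35A (0.08) and RPL32 (-0.09) lie on the same chromosome and were within 1 SD between probe sets of the fit. Among the 10 nearest measured genes on each side, RPL14 had neighbours with a median log2 ratio of 0.36, from -0.76 to 1.29, of which 5 of 20 were at least 1.5-fold higher and 1 lower. For RPL29 the median of the 20 neighbours was 0.52, from -0.21 to 1.85, with 10 at least 1.5-fold higher and none lower. For RPL39L the median of the 20 neighbours was 0.08, from -1.21 to 1.51, with 5 at least 1.5-fold higher and 2 lower. The shares over the whole set of measured genes were 15.6% (higher) and 19.0% (lower).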
